A study of Mus musculus with 13 samples.

Results

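Chromosome 11 of the mouse is a gene-rich autosome, and its 5-hydroxymethylcytosine (5hmC) was described here along its length in 13 breast tumours. The chromosome is given as bins of 300 kb, and a bin was kept when its 5hmC was above 0 in at least 1 of the 13 tumours. This selected 397 of the 407 bins of chromosome 11, out of 8576 bins kept over the autosomes and X. The members were selected on these percentages, and the chromosome was chosen by its high mean 5hmC, so its level is a description and is not tested. The 10 bins left out are the first 3 Mb, where all 13 tumours are listed at 0. Of the bins kept, 360 were above 0 in every tumour. The bins kept that came nearest to the selection limit were 3 bins listed at 0 in 4 tumours, with means over all tumours of 0.528%, 0.581% and 0.803%. Whether a listed 0 means absent 5hmC or absent reads was not tested.

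All tumours were PyMT-induced, from FVB mice, and 5hmC was read by shallow Tet-assisted bisulfite sequencing (TAB-seq), which protects 5hmC and converts other cytosines. The study asked how 5hmC differs with tumour vessels and oxygen. In the Phd2 model, 3 tumours came from wild-type mice (PHD2+/+) and 4 from heterozygous mice (PHD2+/-) at 16 weeks of age; per the labels the heterozygous genotype restores tumour vascularisation and oxygenation. In the sFlk1 model, mice were injected hydrodynamically with an empty PRRL2 plasmid (3 tumours) or with PRRL2-sFlk1 (3 tumours) at 12 weeks of age, and the sFlk1 plasmid is described as making tumours more hypoxic. The labels give the Phd2 genotype of the whole mouse, and the cells that took up or expressed the plasmid are not named in the labels. Tumours are bulk tissue, so a change in the mix of cell types and a change within cells cannot be told apart.

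5hmC is made from 5-methylcytosine by the TET dioxygenases, which need oxygen, iron and 2-oxoglutarate. It is found mainly in the bodies of transcribed genes and around enhancers, and is scarce in intergenic DNA and in silent gene deserts. Phd2 (Egln1) is a prolyl hydroxylase that marks hypoxia-inducible factors for degradation, and sFlk1 is a soluble VEGF receptor that traps VEGF.

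To show the kind of sequence at both ends of the range, the 250 bases before the annotated start of 6 genes are printed 5′ to 3′ on the gene's strand, from RefSeq (GRCm38.p6), with each CG in capitals. A CG is the site at which cytosine is usually methylated and hydroxymethylated in these cells. The first 3 genes lie in bins of high 5hmC. Nf1 (a Ras GTPase-activating tumour suppressor, chr11:79339642-79339891, plus strand) has 21 CG and its bin had the highest level. Tns3 (a focal adhesion protein, chr11:8664536-8664785, minus strand) has 24 CG, and Vps54 (a subunit of an endosome-to-Golgi tethering complex, chr11:21238782-21239031, plus strand) has 43. The other 3 lie in bins below 1%: Nmur2 (a neuromedin U receptor, chr11:56040988-56041237, minus strand, 5 CG), Gabrb2 (a GABA-A receptor subunit, chr11:42420190-42420439, plus strand, 8 CG) and Timd4 (a phosphatidylserine receptor of macrophages, chr11:46810549-46810798, plus strand, 4 CG).
Nf1: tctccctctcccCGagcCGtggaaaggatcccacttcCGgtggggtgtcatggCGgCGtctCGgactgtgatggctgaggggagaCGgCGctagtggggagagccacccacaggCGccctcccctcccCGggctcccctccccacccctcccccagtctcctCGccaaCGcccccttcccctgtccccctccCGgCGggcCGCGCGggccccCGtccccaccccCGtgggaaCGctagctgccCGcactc
Tns3: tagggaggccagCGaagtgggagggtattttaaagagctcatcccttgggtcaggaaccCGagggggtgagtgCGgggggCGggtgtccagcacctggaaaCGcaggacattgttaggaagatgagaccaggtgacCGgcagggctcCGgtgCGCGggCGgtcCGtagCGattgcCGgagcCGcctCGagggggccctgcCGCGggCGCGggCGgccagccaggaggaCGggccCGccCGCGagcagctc
Vps54: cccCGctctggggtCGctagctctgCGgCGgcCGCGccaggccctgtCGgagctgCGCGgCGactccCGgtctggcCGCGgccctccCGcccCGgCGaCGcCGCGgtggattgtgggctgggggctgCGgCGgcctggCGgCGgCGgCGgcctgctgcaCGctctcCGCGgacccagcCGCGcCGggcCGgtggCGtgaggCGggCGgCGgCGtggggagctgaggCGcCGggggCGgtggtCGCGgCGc
Nmur2: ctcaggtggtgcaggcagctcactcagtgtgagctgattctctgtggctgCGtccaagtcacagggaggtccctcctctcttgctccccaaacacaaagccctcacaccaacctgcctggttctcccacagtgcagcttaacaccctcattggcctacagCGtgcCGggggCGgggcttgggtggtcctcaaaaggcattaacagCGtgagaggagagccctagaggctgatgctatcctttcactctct
Gabrb2: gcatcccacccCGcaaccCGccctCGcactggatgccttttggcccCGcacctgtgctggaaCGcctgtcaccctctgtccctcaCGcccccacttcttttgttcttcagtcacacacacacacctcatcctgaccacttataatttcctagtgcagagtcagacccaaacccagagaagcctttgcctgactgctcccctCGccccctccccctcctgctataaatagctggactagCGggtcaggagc
Timd4: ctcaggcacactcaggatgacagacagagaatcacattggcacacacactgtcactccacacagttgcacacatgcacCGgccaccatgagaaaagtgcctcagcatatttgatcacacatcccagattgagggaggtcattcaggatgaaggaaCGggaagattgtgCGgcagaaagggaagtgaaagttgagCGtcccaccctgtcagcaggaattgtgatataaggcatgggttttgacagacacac

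Over the 1271 promoters of chromosome 11 with a sequence, the median was 13 CG in 250 bases, against 10 over 15185 promoters of the other 18 autosomes. A window of this length held the letters CG, which read the same on both strands, in 95.8% of chromosome 11 promoters and in 92.7% of those elsewhere. With the promoters in 3 equal classes by the 5hmC of their bin, the median was 6 CG in the lowest class, 13 in the middle class and 16 in the highest class. The classes overlapped more than the 6 printed genes do: 40.1% of promoters in the lowest class and 71.5% in the highest held 10 or more CG. The promoter is a small piece of a bin of 300 kb, so these counts describe where CG-rich starts lie and not where the 5hmC was read.

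By the annotation the chromosome was gene-rich. Gene bodies covered 54.8% of the average chromosome 11 bin, the second highest cover of 20 chromosomes after chromosome 19. The bin held 4.04 protein-coding genes on average, also the second highest. The mean 5hmC over bins and tumours was 3.13%, again second after chromosome 19 (3.16%), and the mean over bins of the other 18 autosomes was 2.67%.

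In every tumour chromosome 11 ranked first (6 tumours) or second (7 tumours) among the 19 autosomes. Its mean was 2.99%, 2.51% and 2.97% in the Phd2 wild-type tumours and 3.57%, 3.92%, 3.34% and 3.14% in the heterozygous tumours. It was 3.46%, 3.04% and 2.99% with the empty vector and 2.75%, 2.85% and 3.12% with sFlk1. The heterozygous tumours were all above the wild-type ones, whereas the sFlk1 and empty vector tumours overlapped.

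The mean was 2.82% ± 0.271 (SD, n = 3) in wild-type and 3.49% ± 0.331 (SD, n = 4) in heterozygous tumours, which was higher by 0.668 percentage points with an SE of 0.228, or by 23.7%. The other autosomes were 22.7% higher in the same comparison, and 19 of 20 chromosomes did not overlap between these groups. With the median over bins in place of the mean, the groups overlapped, as heterozygous replicate 4 was at 2.93%. With sFlk1 the mean was 2.91% ± 0.188 (SD, n = 3), against 3.16% ± 0.260 (SD, n = 3) with the empty vector. This was a difference of -8.13%, and that of the other autosomes was -8.49%. Unlike chromosome 11, the mean of the other autosomes did not overlap between these groups, and 12 of 20 chromosomes were lower without overlap. The difference on chromosome 11 was -0.257 percentage points, and -0.108 without empty vector replicate 1. Relative to the other autosomes, the chromosome 11 level was 1.17 ± 0.0471 in wild-type, 1.19 ± 0.0229 in heterozygous, 1.15 ± 0.0276 in empty vector and 1.15 ± 0.0499 in sFlk1 tumours, and the groups overlapped in both models. In percent of the level, the group differences of the chromosome as a whole were thus of the size seen on the other autosomes. In points, its Phd2 difference was the largest of the 20 chromosomes (0.668, against 0.545 over the other autosomes). The differences in the ratio were 0.0113 (Phd2) and 0.00503 (sFlk1). With the median over bins both were larger in size, and that of sFlk1 changed sign.

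**Figure D1:**
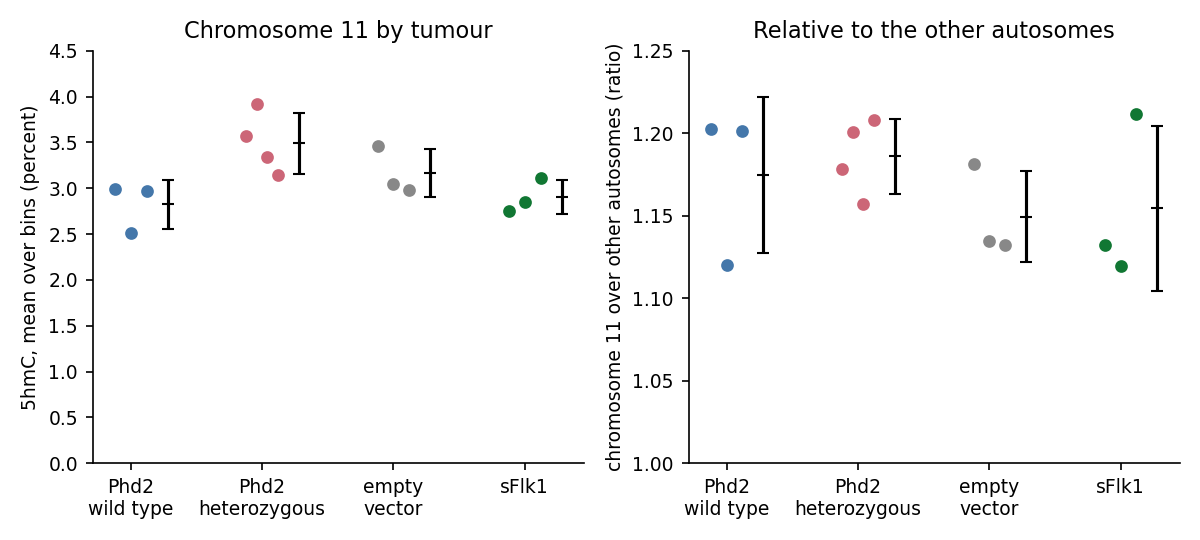
Each point is 1 tumour; the left axis is the mean 5hmC of chromosome 11 bins in percent and the right axis, which starts at 1, is its ratio to the mean of the other 18 autosomes, with the black mark and bar giving the group mean and SD (n = 3 or 4). The 4 heterozygous tumours sit between 3.14% and 3.92%, above the wild-type tumours, while every tumour has a ratio between 1.12 and 1.21 and the groups overlap.

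The bins of chromosome 11 spanned a wide range. The mean over tumours ran from 0.346% to 7.93%, with a median of 3.09% (2.47% on the other autosomes). Below 1% lay 63 bins (15.9%, against 21.9% of bins of the other autosomes) and above 5% lay 54 bins (13.6%, against 10.1%). Neighbouring bins resembled each other, with a correlation of 0.618 over bins next to one another. The profile was shared between tumours: over the 397 bins, the correlation between 2 tumours was 0.729 to 0.898 over 78 pairs, and over 3 Mb windows (10 bins each) it was 0.915 to 0.974. Tumours share the gene content and base composition of each bin, and no p is given for these correlations.

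**Figure D2:**
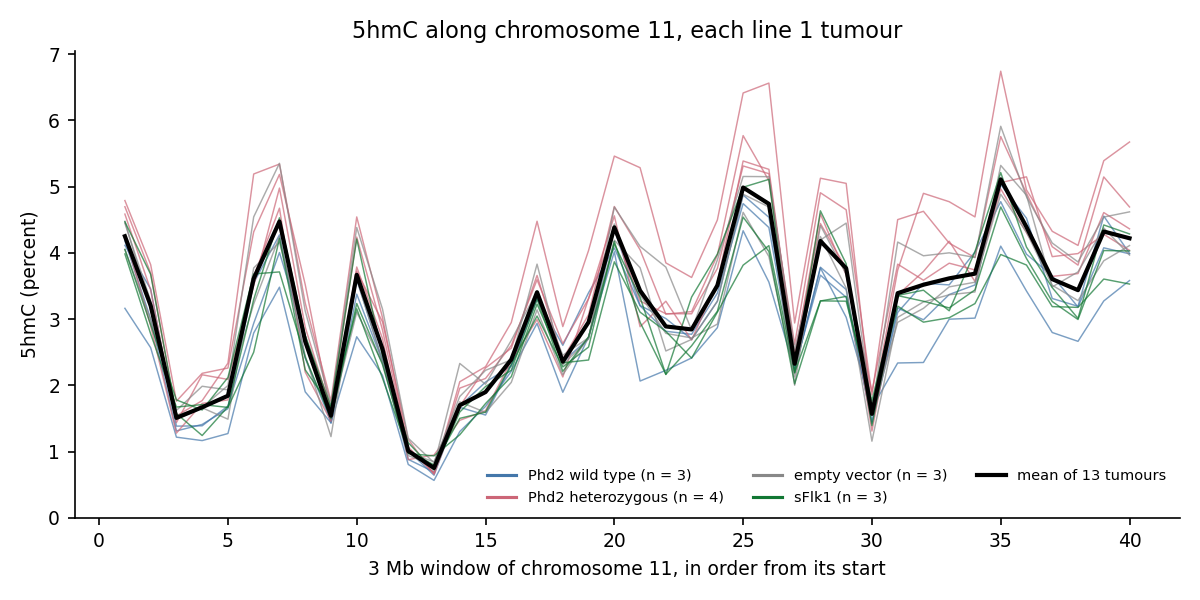
Mean 5hmC in percent (vertical axis) of the 40 windows of 3 Mb of chromosome 11 in order from its start (horizontal axis), with 1 thin line per tumour coloured by group and the mean of 13 tumours in black. The same peaks and troughs recur in the tumours of all 4 groups, and the windows run from a mean of 0.753% to 5.11%.

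The highest 5 of the 40 windows lay between 4.39% and 5.11%. The window from 105 to 108 Mb was highest at 5.11% and was 80.7% covered by genes. It holds Tanc2 (a synaptic scaffold), the edge of Prkca (protein kinase C alpha), Pitpnc1 (a phosphatidylinositol transfer protein) and Helz (an RNA helicase), with Pecam1 and Ace, genes of endothelial cells, and Bptf, a subunit of the NURF remodeller. It was the first in 7 of the 13 tumours. Next was the window from 75 to 78 Mb (4.99%, first in the other 6 tumours), with Smg6 (nonsense-mediated decay), Ssh2 (a cofilin phosphatase), Abr (a regulator of small GTPases) and Hic1 (a tumour suppressor).

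The window from 78 to 81 Mb (4.74%) holds Nf1, Ksr1 (a scaffold of the MAP kinase pathway), Nlk (a kinase that acts on Wnt signalling) and Nos2 (inducible nitric oxide synthase). The window from 21 to 24 Mb (4.47%) holds Wdpcp, Ehbp1, Usp34, Commd1, Vps54 and Rel, an NF-kappaB subunit. The window from 108 to 111 Mb (4.39%) holds Cep112, most of Prkca, Axin2 (an inhibitor of Wnt signalling) and Prkar1a (a regulatory subunit of protein kinase A). The sixth, from 60 to 63 Mb, was nearly level with that window, at 4.386% against 4.391%.

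The lowest 5 windows lay between 0.753% and 1.57%. The window from 39 to 42 Mb had 0.753%, with Hmmr (a hyaluronan receptor) and Mat2b, and 5 protein-coding genes in all. It was the lowest in 12 of 13 tumours and its neighbour from 36 to 39 Mb (1.01%), which holds 1 protein-coding gene, the teneurin Tenm2, was the lowest in the other tumour. The next were the windows from 9 to 12 Mb (1.51%, with Abca13, Ikzf1 and Grb10), from 27 to 30 Mb (1.54%, with Eml6, Ccdc85a and Efemp1) and from 90 to 93 Mb (1.57%, with Stxbp4 and Hlf). The tumours of these 3 windows overlapped in level.

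Single bins sharpened this picture. The highest was chr11:79200001-79500000, which holds Nf1 and Wsb1, at 7.93%. The Nf1 bin read 5.69%, 4.70% and 8.34% in wild-type, 8.28%, 12.6%, 7.75% and 8.78% in heterozygous, 10.8%, 6.91% and 8.37% in empty vector and 6.12%, 5.69% and 9.01% in sFlk1 tumours. Both pairs of groups overlapped there. The 5 that followed were the bins of Tns3 (chr11:8400001-8700000, 7.82%), Tanc2 (chr11:105600001-105900000, 7.49%), Prkca (chr11:108000001-108300000, 7.42%), Vps54 and Peli1 (chr11:21000001-21300000, 7.08%) and Ntn1 and Stx8 (chr11:68100001-68400000, 6.96%). The Tanc2 and Prkca bins lie wholly within 1 gene body.

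Among bins above 0 in all tumours, the lowest was chr11:39600001-39900000 (0.390%), which holds no protein-coding gene body among its longest genes (Gm33963). Other low bins were a gene-poor bin at chr11:56700001-57000000 (0.549%), the bin of Nmur2 (chr11:55800001-56100000, 0.558%), chr11:39900001-40200000 (0.583%) and the bin of Ccdc85a (chr11:28200001-28500000, 0.607%). Genes covered 98.4% of the Nmur2 bin, so the low bins were not all poor in annotated genes.

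Low and high bins formed runs. Runs of 6 bins below 1% lay at chr11:26700001-28500000 (0.619%, Ccdc85a) and chr11:46800001-48600000 (0.551%, Timd4 and Sgcd, a muscle sarcoglycan whose body covers much of it). The longest run above 4% was 10 bins at chr11:115500001-118500000 (4.98%), with 75 protein-coding genes, among them Sumo2, Grb2 and Nup85. Runs of 8 bins around Tanc2 and Ace (chr11:105300001-107700000, 5.60%), of 7 bins around Smg6 and Pafah1b1 (chr11:74400001-76500000, 5.39%) and of 6 bins from Spred2 and Actr2 to Vps54 (chr11:19800001-21600000, 5.80%) followed. The last of these was 47.9% covered by genes, less than the chromosome's average bin.

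5hmC and gene content went together along the chromosome. Over its 397 bins, the correlation of 5hmC with the share covered by gene bodies was 0.487 (0.415 over 7622 bins of the other autosomes), and the rank correlation with the number of protein-coding genes was 0.514 (0.431 elsewhere). Bins are not independent, since neighbours share genes and base composition. When bins were compared at a like number of protein-coding genes, bins with 4 to 6 genes had 4.12% on chromosome 11 and 3.44% elsewhere, higher in 13 of 13 tumours and above each other chromosome. Bins with 7 or more genes had 3.73% against 3.19%, and bins with 2 to 3 genes had 3.74% against 3.36%, both higher in 13 of 13 tumours. Bins with 1 gene were at 2.82% and 2.79%. Bins with no protein-coding gene went the other way, with 1.42% on chromosome 11 and 1.67% elsewhere, lower in 13 of 13 tumours.

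By this count, the contrast between bins with several protein-coding genes and bins with none was steeper on chromosome 11 than over the other autosomes pooled. Outside the class of 4 to 6 genes, some single chromosomes were above chromosome 11. These were 3 at 7 or more genes, 2 at 2 to 3 genes, 9 at 1 gene and 14 at none. No contrast is given for single chromosomes, so the steeper one is not shown to be particular to chromosome 11. A gene is counted only where its middle lies, so a bin with none can still lie inside a long gene. By gene cover, the lowest bins were level: those covered 0 to 20% had 1.409% on chromosome 11 and 1.412% elsewhere. Bins covered 20 to 40% had 2.29% and 2.40%, and bins covered 80 to 100% had 3.59% and 3.13%. With the gene-count mix of the other autosomes, chromosome 11 would average 2.83%, which is 0.155 percentage points above them, against 0.452 as measured. With the mix of gene cover it would average 2.90%, or 0.229 points above them.

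**Figure D3:**
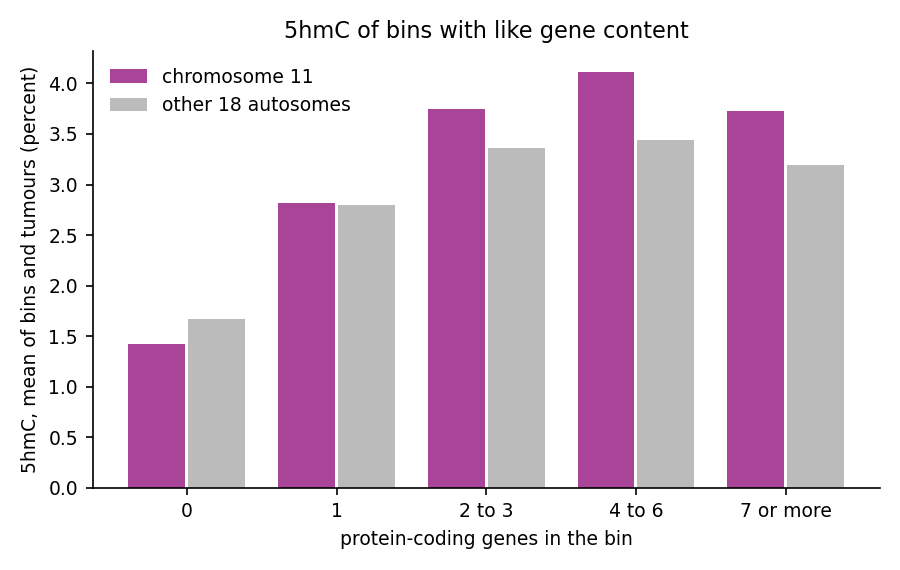
Bars give the mean 5hmC in percent over bins and over 13 tumours, by the number of protein-coding genes whose middle lies in the bin, for chromosome 11 and for the other 18 autosomes. Bins with 4 to 6 genes stand at 4.12% and 3.44%, whereas bins with none stand at 1.42% and 1.67%.

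With bins in 3 equal classes by the share covered by gene bodies, the poorest class of chromosome 11 (133 bins, cover up to 45.0%) had 1.88%, the middle class (132 bins) 3.66% and the densest class (132 bins, cover from 71.8%) 3.85%. The gap between the densest and the poorest class was 1.94, 1.74 and 1.95 percentage points in wild-type tumours and 2.26, 2.51, 2.07 and 2.48 in heterozygous tumours. The heterozygous gaps were all larger, with means of 2.33 ± 0.205 (SD, n = 4) and 1.88 ± 0.119 (SD, n = 3). As a ratio, however, the densest class was 2.18 times the poorest in heterozygous and 2.14 times in wild-type tumours, and these overlapped. The gap was 1.66 ± 0.154 with sFlk1 and 1.91 ± 0.196 with the empty vector (SD, n = 3 each), and these overlapped; the difference of -0.255 points was -0.143 without empty vector replicate 1. No test is given for these classes, as the chromosome was chosen with its values known.

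For group differences along the chromosome, 5hmC was averaged over 3 Mb windows and tested with limma over all 868 windows of the autosomes and X. In the Phd2 model all 40 windows of chromosome 11 had the higher mean in heterozygous tumours, as did 94.6% of the 868 windows. After each tumour was scaled to its own mean over all bins, 20 of the 40 were higher. The differences ran from 0.104 to 1.37 percentage points, or from 9.88% to 48.3% of the wild-type level, with a median of 22.1%. With limma's Benjamini-Hochberg adjusted p under 0.05, 12 of the 40 windows were higher and 0 lower, while 23.7% of windows in the genome were called higher. The share of 30% on chromosome 11 is near that background, and no excess is claimed for the chromosome. The 2 groups did not overlap in 21 of 40 windows (52.5%), against 38.7% in the genome.

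The windows called were those from 12 to 24 Mb (4 in a row), from 75 to 81 Mb, from 84 to 90 Mb, from 93 to 102 Mb and from 114 to 117 Mb. The window from 96 to 99 Mb had the smallest p. It holds the Hoxb genes, in 2 bins of which 1 had the higher and 1 the lower mean in heterozygous tumours. The window also holds Med1, Rpl19, Erbb2 (the HER2 receptor), Grb7 and Cdk12. Its values were 3.54%, 2.35% and 2.99% in wild-type and 4.63%, 4.90%, 3.59% and 3.72% in heterozygous tumours, which did not overlap. The difference was 1.25 percentage points (limma SE 0.339, adjusted p 0.0319).

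The largest difference in points was at 78 to 81 Mb, the window of Nf1 and Nos2. It read 4.38%, 3.56% and 4.54% in wild-type and 5.09%, 6.56%, 5.20% and 5.26% in heterozygous tumours. These did not overlap, and the difference was 1.37 points (limma SE 0.414, adjusted p 0.0365). In an exact permutation test (two-sided) of single windows, 7 of the 12 called windows had p = 0.0286, the lowest that 35 arrangements can give, and 5 had a higher one. Of those 5, the windows from 15, 93 and 96 Mb had 0.0571, that from 87 Mb 0.0857 and that from 18 Mb 0.143 in this exact test.

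The largest difference in relative terms was at 12 to 15 Mb, a gene-poor window (2 protein-coding genes with their middle in it) that holds Cobl, an actin nucleator, and part of Grb10. It read 1.39%, 1.17% and 1.41% in wild-type and 2.18%, 1.77%, 2.16% and 1.73% in heterozygous tumours, with no overlap. The heterozygous mean was 48.3% higher (difference 0.638 points, limma SE 0.180, adjusted p 0.0319). Its bins from 12600001 and from 13500001 were each listed at 0 in 4 tumours. With only bins above 0 in all tumours, the difference of the window was 1.06 points. The next window, from 15 to 18 Mb, holds Egfr (the EGF receptor) and Plek, and rose from 1.54% ± 0.229 (SD, n = 3) to 2.12% ± 0.247 (SD, n = 4). The window of Meis1, Spred2 and Actr2 from 18 to 21 Mb was called too, with 3.09% ± 0.401 (SD, n = 3) and 4.16% ± 0.771 (SD, n = 4), although wild-type replicate 3 (3.55%) was above heterozygous replicate 3 (3.51%).

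Further called windows are given with some of the genes they hold. That from 99 to 102 Mb, with the type I keratin cluster, Brca1 and the Stat3, Stat5a and Stat5b transcription factors, was at 3.30% ± 0.267 (SD, n = 3) and 4.24% ± 0.389 (SD, n = 4). That from 84 to 87 Mb, with Brip1 (a helicase of DNA repair), Tbx2 and Bcas3, was at 3.74% ± 0.0665 and 4.77% ± 0.309. That from 93 to 96 Mb, with Col1a1 (type I collagen), Spop and Ngfr, was at 2.87% ± 0.461 and 3.86% ± 0.474. That from 87 to 90 Mb, with Msi2 (an RNA-binding protein of stem cells) and Rnf43, was at 3.27% ± 0.216 and 4.28% ± 0.676. That from 114 to 117 Mb, with Grb2, Itgb4 (a hemidesmosome integrin) and Sdk2, was at 3.01% ± 0.303 and 3.90% ± 0.188. In these 5 windows the tumours of the compared groups did not overlap, and adjusted p in limma over the 12 windows was 0.0319 to 0.0456.

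The highest window of the chromosome, from 105 to 108 Mb, was not among the windows called: it read 4.64% ± 0.480 (SD, n = 3) in wild-type and 5.63% ± 0.820 (SD, n = 4) in heterozygous tumours, with overlap and an adjusted p of 0.0746 in limma, which was 0.0318 without heterozygous replicate 4. The troughs moved least in points. At 39 to 42 Mb the means were 0.634% ± 0.0641 and 0.738% ± 0.141, and at 36 to 39 Mb 0.901% ± 0.105 and 1.05% ± 0.126, with overlap in both. After scaling to the tumour mean, the heterozygous mean was the lower in these 2 and in the window from 105 to 108 Mb. Across the 40 windows, the difference in points and the level correlated at 0.818, and the difference relative to the wild-type level and the level at 0.236; both are descriptions over windows that share tumours.

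The count of called windows changed with the scaling, the window size and the set of tumours. With the scaling to the tumour mean, 0 of 40 windows were called; with only the 2 groups of the model in the fit, 0; and with windows of 1.5 Mb, 0. It was 1 without wild-type replicate 1, 0 without wild-type replicate 2, wild-type replicate 3, heterozygous replicate 1 or heterozygous replicate 2, and 25 without heterozygous replicate 4.

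With sFlk1, 34 of 40 windows had the lower mean, with a range of -26.4% to 11.8% and a median of -6.81%; over the 868 windows 76.6% were lower. After scaling to the tumour mean, 18 of 40 were lower. Without empty vector replicate 1, 27 were lower and the median difference went from -0.24 to -0.08 points; it was -0.13 without sFlk1 replicate 1 and -0.38 without sFlk1 replicate 3. No window passed the limma threshold at adjusted p under 0.05 (0 of 40), and the same held for the 868 windows of the genome (0.0% called). At an unadjusted limma p under 0.05, 2 of the 40 windows were lower and 0 higher, where 66 of the 868 were lower and 5 higher. The tumours of the compared groups did not overlap in 7 of 40 windows, all lower with sFlk1 (17.5%, against 16.7% in the genome). In a group comparison of 3 against 3, the exact permutation p cannot fall below 0.10.

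The smallest p was at 42 to 45 Mb, which holds Gabrb2, Il12b, Ebf1 (a B-cell transcription factor) and Adra1b. It read 1.83%, 2.33% and 1.75% with the empty vector and 1.5%, 1.25% and 1.6% with sFlk1, without overlap, for a difference of -0.52 points (limma SE 0.204, adjusted p 0.587). The window from 108 to 111 Mb, with Prkca, Axin2 and Prkar1a, read 4.85%, 4.87% and 4.31% against 3.82%, 3.92% and 4.09%, also without overlap (adjusted p 0.587 in limma). The window from 66 to 69 Mb, with the skeletal muscle myosin genes, Ntn1 and Stx8, came next, with 3.03% ± 0.668 and 2.38% ± 0.375 (SD, n = 3 each) and overlap.

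In the other direction, the smallest p were at 90 to 93 Mb (1.44% ± 0.251 with the empty vector, 1.61% ± 0.197 with sFlk1), 27 to 30 Mb (1.49% ± 0.243 and 1.62% ± 0.102) and 9 to 12 Mb (1.55% ± 0.0659 and 1.68% ± 0.103). All 3 are among the 5 lowest windows of the chromosome, all 3 overlapped, and their adjusted p in limma were 0.740 to 0.774. Across the 40 windows the difference with sFlk1 and the level correlated at -0.557. The Phd2 and sFlk1 differences, which come from separate tumours, correlated at -0.587 over the 40 windows (rank correlation -0.639), and both sets of differences correlated with the level.

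**Figure D4:**
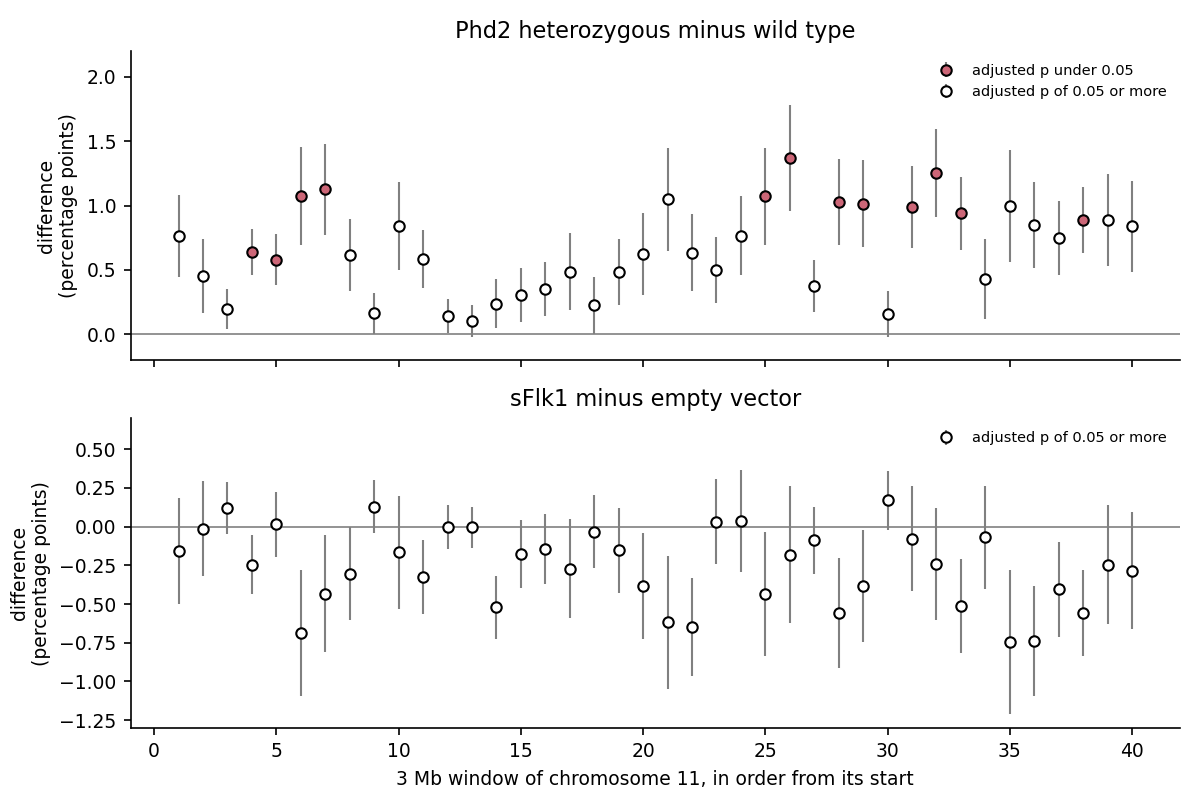
Differences in 5hmC in percentage points (vertical axes) with limma standard errors for 40 windows of 3 Mb in order from the start of chromosome 11; filled points passed the adjusted threshold of 0.05. The upper panel (heterozygous minus wild type) lies above 0 throughout with 12 filled points, and the lower panel (sFlk1 minus empty vector) is mostly below 0 with none filled.

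No single bin of chromosome 11 passed the limma threshold in either comparison. The share called among the 8576 bins of the genome was 0.0% in the Phd2 and 0.0117% in the sFlk1 comparison. At an unadjusted limma p under 0.05, 46 chromosome 11 bins were higher and 3 lower in heterozygous tumours (11.6% and 0.756%), where 10.4% and 0.443% of bins in the genome were. With sFlk1, 6 were higher and 18 lower (1.51% and 4.53%), where 2.12% and 5.06% were. All these shares are near the background of the genome. After scaling to the tumour mean the counts were 5 higher and 8 lower in the Phd2 and 17 higher and 14 lower in the sFlk1 comparison. Without wild-type replicate 2 the 46 became 12, and without heterozygous replicate 1 or replicate 2 it became 30. The 18 became 10 without empty vector replicate 1 and 29 without empty vector replicate 3, and the 6 became 3 without empty vector replicate 2 and 11 without sFlk1 replicate 1 or replicate 2. By sign alone, 327 of the 397 bins (82.4%) were higher in heterozygous tumours, against 75.1% of all bins. After each tumour was scaled to its own mean, 53.7% were, against 46.8% of all bins.

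The bin with the smallest p in the Phd2 comparison was chr11:97800001-98100000, which holds Plxdc1, a gene of tumour endothelium, Lasp1 (an actin-binding protein) and Rpl19 (a ribosomal protein). It read 3.33%, 2.2% and 3.07% in wild-type and 7.48%, 5.97%, 3.91% and 5.91% in heterozygous tumours, which did not overlap (adjusted p 0.324 in limma). The bin of Smg6, Mettl16 (an RNA methyltransferase) and Sgsm2 at chr11:74700001-75000000 had 3.8% ± 0.638 (SD, n = 3) and 6.40% ± 0.756 (SD, n = 4), and that of Cdk12, Fbxl20, Med1 and Neurod2 at chr11:98100001-98400000 had 2.90% ± 1.35 and 5.12% ± 0.705, with the same adjusted p. Downwards the values were small: the nearly gene-free bin chr11:66600001-66900000 read 1.44%, 1.12% and 1.70% in wild-type and 0.364%, 0.836%, 0.459% and 0.743% in heterozygous tumours, without overlap (adjusted p 0.350 in limma). The bins of Adamts2 and Rufy1 (chr11:50400001-50700000, 2.57% and 1.43%) and of Zfp616 with olfactory receptor genes (chr11:73800001-74100000, 0.988% and 0.414%) followed, the last with 1 tumour listed at 0.

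With sFlk1, the bin of Aftph (a clathrin adaptor) and Lgalsl at chr11:20700001-21000000 had the smallest p. It read 8.95%, 8.21% and 6.45% with the empty vector and 4.62%, 2.90% and 4.22% with sFlk1, without overlap, for a difference of -3.95 points (limma SE 0.877, adjusted p 0.253). In the Phd2 comparison the same bin was at 5.03% ± 0.490 (SD, n = 3) and 6.75% ± 0.457 (SD, n = 4), also without overlap. The bin of Stc2 (stanniocalcin, a glycoprotein hormone; chr11:31200001-31500000) was at 3.34% ± 0.672 and 1.40% ± 0.838, and that of Cobl (chr11:12300001-12600000) at 5.34% ± 0.797 and 2.67% ± 0.975 (SD, n = 3 each). Upwards, the low bin of Ccdc85a was at 0.178% ± 0.0587 and 1.11% ± 0.406, the bin of a tRNA gene at chr11:7800001-8100000 at 1.95% ± 0.219 and 3.84% ± 1.15, and chr11:10200001-10500000, with 2 tumours listed at 0, at 0.377% ± 0.328 and 1.13% ± 0.107. None of these passed the threshold.

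For genes, 192 of 199 listed genes lay on chromosome 11 and were given the bin with most of their body. Genes of a list that share a bin share its value. List medians are set beside the median of all bins, which include bins without genes. Bins of chromosome 11 with 2 to 3, 4 to 6 and 7 or more protein-coding genes had means of 3.74%, 4.12% and 3.73%. Lists were not compared with bins of like gene number. The bins of the 14 tumour suppressor and DNA repair genes had a median of 4.63% (all bins of the chromosome 3.09%), from Rad51c at 2.77% to Nf1 at 7.93%, with Prkar1a at 6.89%, Hic1 and Brip1 at 5.39% and 5.38%, Brca1 at 4.08% and Trp53 at 3.46%. The mean was higher in heterozygous tumours in all 14 bins (82.4% of all bins) and lower with sFlk1 in 11 (62.0% of all bins). Brip1 had the smallest p in both comparisons. Its bin was at 4.54% ± 0.596 (SD, n = 3) in wild-type and 6.46% ± 0.13 (SD, n = 4) in heterozygous tumours, and at 6.10% ± 0.207 with the empty vector and 4.04% ± 0.814 with sFlk1. Neither pair overlapped, and the limma adjusted p were 0.357 and 0.598.

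The 10 bins of mammary luminal and receptor signalling genes had a median of 4.34%. The highest was the bin shared by Stat5a, Stat5b and Stat3, mediators of prolactin and cytokine signals, at 6.54%, and the lowest was that of Krt19, a luminal keratin, at 2.79%. Erbb2 and Grb7 shared a bin at 2.86%. The heterozygous mean was the higher in all 10 bins and the sFlk1 mean the lower in all 10, where 82.4% and 62.0% of all bins of the chromosome were, and none passed the threshold in either comparison. Egfr had the smallest p in the Phd2 comparison, with 3.11% ± 0.989 (SD, n = 3) and 4.90% ± 1.04 (SD, n = 4). The 4 bins of basal and myoepithelial genes had a median of 3.87%, with Itgb4 highest at 4.66%.

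Clusters of tissue-specific genes mostly lay below the median of the chromosome. The 10 Hoxb genes, homeobox genes held in a Polycomb-controlled cluster, lay in 2 bins at 1.31% and 1.62%. The 19 type I keratin genes lay in 3 bins from 2.30% to 4.25%, the skeletal muscle myosin genes in 2 bins at 2.31% and 2.62%, and the 83 olfactory receptor genes in 17 bins with a median of 2.39%. The Ccl chemokine genes fell into 2 bins of unlike level, 1.49% with Ccl1 and 4.72% with Ccl4 and Ccl9. The cytokine cluster was high, with a median of 4.40% and Il5 and Irf1 sharing a bin at 5.50%.

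Lists of genes that mark other cells of a tumour also had medians above that of the chromosome. These medians were close to the means of its bins with several protein-coding genes (3.73% to 4.12%). The 7 endothelial and vessel genes had a median of 4.30%, from Flt4 (the lymphatic VEGF receptor) at 2.94% to Itgb3 (an integrin of platelets and vessels) at 5.76%. Of these 7 bins, 6 had the higher mean in heterozygous tumours and 1 the lower, where 82.4% of all bins of the chromosome had the higher. Their median difference was 0.5005 points, below the 0.5915 of all bins. Pecam1 had the smallest p of the list in the Phd2 comparison. Its bin was at 5.45% ± 0.864 (SD, n = 3) in wild-type and 7.0% ± 0.525 (SD, n = 4) in heterozygous tumours, without overlap (limma adjusted p 0.460). The haematopoietic genes had a median of 4.10%, with Nos2 highest at 5.60%, and the fibroblast and matrix genes 3.78%, with Timp2 highest at 5.66% and Sgcd lowest at 0.612%. 5hmC in a bin is not expression, and the share of each cell type in these tumours was not tested.

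The 7 genes of the oxygen and glycolysis list had a median of 3.99%. All 7 bins had the higher mean in heterozygous tumours, where 82.4% of all bins of the chromosome did. The highest was Vmp1, a protein of autophagy, at 4.96%. Eno3, an enolase, had the smallest p, with 3.64% ± 0.833 (SD, n = 3) in wild-type and 5.14% ± 0.586 (SD, n = 4) in heterozygous tumours (adjusted p 0.405 in limma). Slc2a4, the insulin-regulated glucose transporter, was lowest at 2.93%. Chromatin genes had a median of 4.13%, with Bptf highest at 5.44%. Housekeeping and ribosomal genes had a median of 4.12%, from Rpl38 at 2.52% to the proteasome gene Psmd12 at 6.39%. The developmental transcription factors outside Hoxb had a median of 4.05%, from Ebf1 at 1.02% to Sox9 at 5.22%, and the imprinted genes Grb10 and Commd1 were at 4.10% and 4.47%.

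Synaptic and neuronal genes were the low counterpart, with a median of 1.55% over 13 bins. Gria1 (an AMPA receptor subunit) was lowest at 0.626% and Kcnj16 (a potassium channel) highest at 4.15%. Of these bins, 6 had the higher mean in heterozygous tumours and 7 the lower, where 82.4% of all bins of the chromosome had the higher. Their median difference was small, at -0.0408 points. Over the windows of the chromosome the difference in points went with the level (correlation 0.818). The neuronal bins were not compared with bins of like level, so the split is not read as a trait of these genes. Mapt, the microtubule protein tau, had the smallest p in the Phd2 comparison, at 2.77% ± 0.657 (SD, n = 3) and 4.13% ± 0.645 (SD, n = 4), without overlap and not past the threshold (limma adjusted p 0.437).

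**Figure D5:**
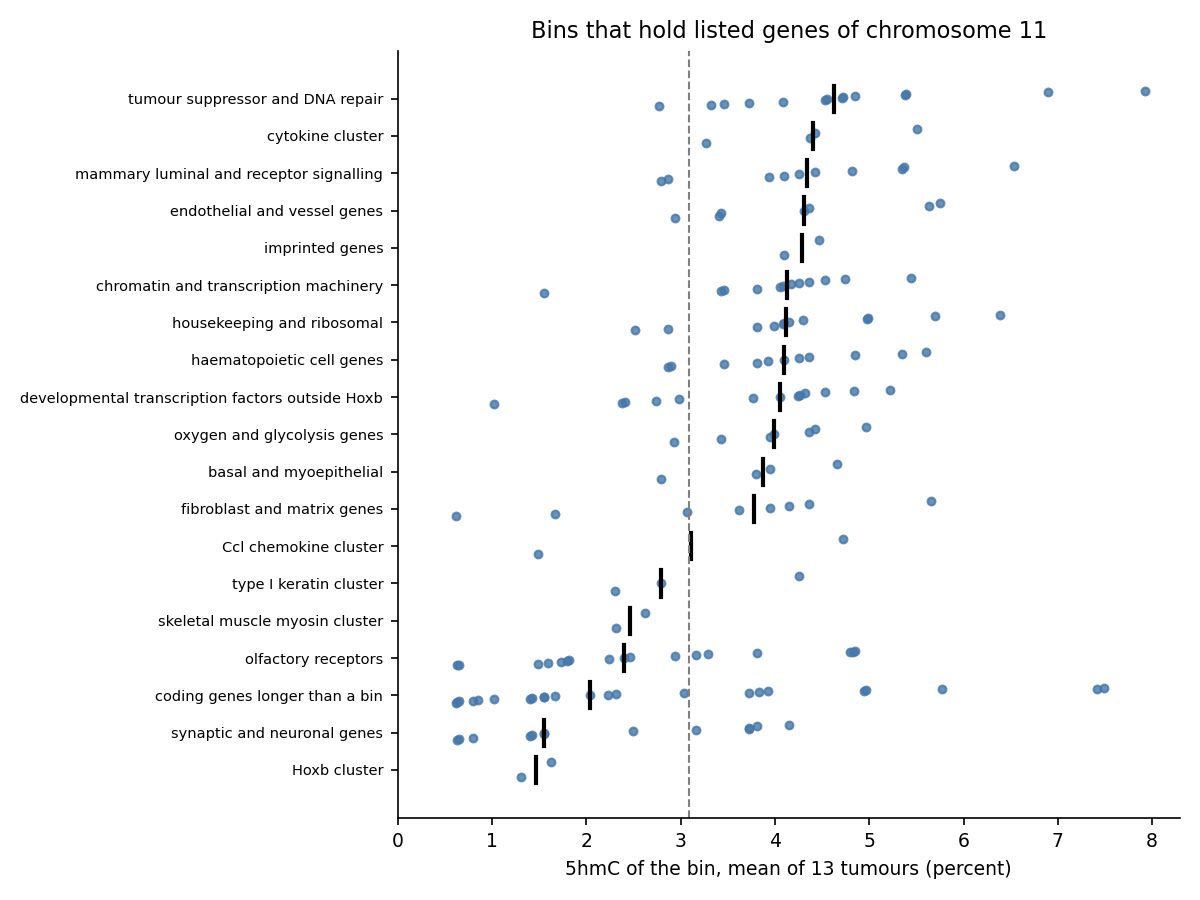
Each point is a bin that holds 1 or more genes of the list named on the vertical axis, placed by its 5hmC in percent (mean of 13 tumours); black bars are list medians and the dashed line is the median of all 397 bins, 3.09%. Tumour suppressor bins have a median of 4.63% and the 2 Hoxb bins lie at 1.31% and 1.62%.

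The 23 protein-coding genes longer than a bin (300 kb) show how far gene bodies can differ, since the bins within them hold mostly 1 gene. Averaged over the bins used for each, they ran from 7.49% in Tanc2 and 7.42% in Prkca to 0.531% in Sgcd. Of the 23, 8 lay above the chromosome's median and 4 lay below 1%. Some, such as Ranbp17 and Dnah9, do not fill the bins used, so their values include DNA outside the gene. Msi2 was at 5.47%, Bcas3 at 4.96% and Ranbp17 (a nuclear transport protein) at 4.94%. At the other end were Tenm2 (1.06% over 4 bins), Ebf1 (1.02%), Abca13 (0.846%), Shisa6 (0.647%) and Gria1 (0.626%).

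Between groups, 18 of the 23 long genes (78.3%) had the higher mean in heterozygous tumours, against 82.4% of all bins of the chromosome. The groups did not overlap in 7 that were higher and 1 that was lower. Among the 397 single bins of the chromosome they did not overlap in 54 that were higher and 5 that were lower. Some of the long genes are means over more than 1 bin, so these counts are not fully alike. Bcas3 was at 4.37% ± 0.261 (SD, n = 3) in wild-type and 6.22% ± 0.743 (SD, n = 4) in heterozygous tumours, and Dock2, a gene of leukocyte migration, at 1.07% ± 0.141 and 1.86% ± 0.322, without overlap in either. Asic2, an acid-sensing ion channel gene that fills 3 bins, went the other way, with 1.37% ± 0.111 (SD, n = 3) in wild-type and 0.970% ± 0.134 (SD, n = 4) in heterozygous tumours, without overlap. No bin within these genes passed the limma threshold.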

How the data were processed

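The authors deposited 1 table of 5hmC in percent, with 1 column per tumour and 1 row per bin of 300 kb. Per the labels' protocols, DNA was extracted in buffers with 200 µM DFO, an iron chelator, and TAB-converted. Per the submitters' processing notes, Bismark 0.13.1 and the build mm9 were used in a role not stated, but the last bin of chromosome 11 ends at 122082543, the length in GRCm38, so coordinates are GRCm38. The sources used here do not state how reads were pooled within a bin. No read counts are given, so depth is unknown and a thinly covered bin weighs as much as any other.

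Columns were matched to tumours by the labels and a listed 0 was kept as a value. Genes came from RefSeq (GRCm38.p6), and each listed gene was given the bin with most of its body. Windows are means of 10 bins. Bins and windows were fitted with limma 3.58.1 in R 4.3.3, with trend, on percentages of all 13 tumours with 4 group means, and Benjamini-Hochberg adjustment over the genome at 0.05. The fit was tested on simulated bins drawn independently, without the tumour-wide shifts and likeness of neighbours seen in these data. Of 200 bins raised by 2 points, 41.5% were called in the Phd2 and 31.5% in the sFlk1 comparison, with 7 and 1 false calls. Of 200 raised by 4 points, 92.5% were called in both, with 8 and 13 false calls. Single windows and bins also had an exact two-sided permutation test over tumours. Windows and bins named are the highest and lowest by level and those past the threshold or, where fewer than 3 passed in a direction, the 3 with the smallest p. From each gene list the highest, the lowest and the smallest p in each comparison were named, and further listed genes were named after their values were seen. The chromosome, its members and the gene lists were chosen with earlier results of these data known. Values of some genes and bins that the naming rule takes, and 1 gene list, are not reported here. Figures were drawn with matplotlib 3.10.9.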

Additional observations from a re-analysis of the deposited data

Results flagged for a closer look

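In the group of 4 heterozygous tumours, 73 reported levels were checked for a tumour that stood apart from the other 3, and 5 had one; chance gives about 1 in 20. In the lowest window, from 39 to 42 Mb (Hmmr, Mat2b), heterozygous replicate 4 was at 0.950% and the others at 0.658% to 0.676%. In the Nf1 window from 78 to 81 Mb, replicate 2 was at 6.56% and the others at 5.09% to 5.26%. In the Stc2 bin, replicate 2 was at 1.45% and the others at 2.41% to 2.60%. In the Ntn1 and Stx8 bin, replicate 4 was at 10.9% and the others at 7.90% to 8.14%. Over Shisa6, replicate 3 was at 0.179% and the others at 0.716% to 0.751%. With read counts unknown, the part of sampling in these values was not tested.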

How the results depend on the processing

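In the Phd2 comparison, the count of 12 called windows became 0 with each tumour scaled to its own mean, 0 with only the 2 groups compared, 0 with windows of 1.5 Mb and 23 with the replicate block, and ran from 0 to 25 with 1 tumour left out. Why these counts differ was not tested. It was 13 to 15 of 40 under the other alternatives, except 13 of 38 with the lowest 10% left out and 14 of 21 with windows of 6 Mb. With sFlk1 the count of windows was 0 under each alternative run, and no bin of chromosome 11 was called under any in either comparison. Scaling moved the difference of the chromosome mean to 0.0344 percentage points (Phd2) and 0.00252 (sFlk1), since it removes the tumour-wide level. With the median over bins, the difference in the ratio to the other autosomes was 0.0520 (Phd2) and -0.0434 (sFlk1). The group differences in the gap between gene-dense and gene-poor bins kept their direction and moved by less than 1 SD; that of sFlk1 was -0.127 with only bins above 0 in all tumours and -0.122 with classes by number of genes. Of 41 differences of single windows or bins that were recomputed, 5 turned direction under 1 alternative each. In the Phd2 comparison, scaling gave -0.0519 at 36 to 39 Mb, -0.0218 at 39 to 42 Mb and -0.0489 at 105 to 108 Mb. With sFlk1, the window from 27 to 30 Mb ran from -0.00243 to 0.238 points with 1 tumour left out and was below 0 without empty vector replicate 3, and that from 9 to 12 Mb became -0.106 with only bins above 0 in all tumours. Deviations of tumours that share a replicate number correlated at -0.0934 to -0.00429 over 3 pairs of the Phd2 model and -0.0526 to -0.0421 over 3 pairs of the sFlk1 model, so the numbers were not taken to pair tumours. The replicate block changed no call in the sFlk1 windows or in the bins of chromosome 11. Depth is unknown, and with 3 or 4 tumours a group a bin that missed the threshold is not shown to be alike.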
